A study of Homo sapiens with 4 samples.

Results

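The transcripts described here encode the hypoxia-inducible factors and the enzymes that control them: HIF1A, EPAS1, ARNT, VHL, EGLN1, EGLN2, EGLN3 and HIF1AN. Their N6-methyladenosine (m6A) sites were taken from 4 lists of called sites, by gene name, and came to 129 of the 218950 sites listed in any library. Of the 8 members, 7 had a listed site. No site carried the name EGLN2, and 18 sites inside the annotated span of EGLN2 were named RAB4B-EGLN2, the readthrough gene that covers it. These 18 sites are described beside the members and were kept out of their counts.

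The libraries came from HEK293T cells, a human embryonic kidney line that carries the SV40 large T antigen. The ascorbic acid group (2 libraries) had been treated for 36 h with a medium change every 6 h, beginning 24 h after seeding, per the labels' protocols. The labels give the same times for the control group (2 libraries), which is labelled WT. Both groups grew in high-glucose DMEM with serum, and no dose of ascorbic acid is stated in the labels. Replicates are not described as separate cultures, so p-values cover the spread between these 4 samples, which may be technical.

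The assay was GLORI, in which unmethylated adenosines are deaminated and sequenced as G and methylated ones remain A. A site's m6A level is given as the percent of A among its A plus G reads. The series asks whether ascorbic acid changes m6A, and these transcripts encode a pathway that ascorbate is known to touch at the level of its proteins.

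HIF is a dimer of an oxygen-controlled alpha subunit, such as the products of HIF1A and EPAS1, and the constant partner encoded by ARNT. When oxygen is present, the prolyl hydroxylases encoded by EGLN1, EGLN2 and EGLN3 modify the alpha subunit, VHL binds the hydroxylated form, and the subunit is ubiquitinated and degraded. HIF1AN encodes factor inhibiting HIF, an asparaginyl hydroxylase that blocks the recruitment of coactivators. The hydroxylases use oxygen, 2-oxoglutarate and Fe(II), and ascorbate helps to keep their iron reduced. None of the values below measures a protein or a hydroxylation.

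The sequences at hand were promoter windows, and 4 member sites could be read in them, 3 in HIF1A and 1 in ARNT. They are shown because they lie within 7 nt of the first annotated base of HIF1A or before the annotated start of ARNT, unlike the other sites of these transcripts. Coordinates here and below are on GRCh38. Capitals mark the listed adenosines, the sequences are RefSeq promoter windows of GRCh38.p14, and both read 5′ to 3′ along the transcribed strand. The first lies at chr14:61695502-61695531 on the plus strand and the second at chr1:150876696-150876724 on the minus strand.
HIF1A: ctcagctcctcAgtgcAcAgtgctgcctcg
ARNT: ctgctgaagccgccAtcttggattccgcg

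None of these 4 adenosines lay in DRACH, the usual m6A motif, searched on the transcribed strand as the 5 bases around the site. Over all promoter windows, 7318 listed sites fell inside a window on its strand, every one of them at an A. Of the 7278 with all 5 bases in the window, 17.7% were in DRACH. In HIF1A the first capital, at 61695513, is the first annotated base of the gene. It was listed in 1 library of each group, at 10.5% with ascorbic acid and 14.9% in control. The second, at 61695518, had 26.2% and 15.9% in the ascorbic acid libraries, against 13.5% and 16.2% in control, with 37 to 82 reads, so the groups overlapped (edgeR adjusted p = 0.504). The third, at 61695520, had 11.6% and 10.3% with ascorbic acid and 11.1% in 1 control library. The ARNT adenosine at 150876710 lies 111 nt before the annotated start and was listed at 42.1% and 50.0% with ascorbic acid and at 43.5% in 1 control library, on 16 to 23 reads. At that depth the 95% Wilson intervals ran from 23.1% to 72.0% over the 3 libraries. The other sites described below have no sequence in the sources used here.

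Over the whole series the libraries listed 135205 and 143518 sites with ascorbic acid and 132989 and 144171 in control. Summed over each list, A plus G reads were 25146378 and 26816350 with ascorbic acid, against 22592887 and 28562744 in control. A listed site has at least 15 A plus G reads, 5 A reads and a level of 10%. Tests were run on the 78509 sites present in every list with a minimum of 20 reads per library, which lie in 10782 named genes or outside them. As a check of the label, 4 of 8 genes known from HEK293T cells (EYA1, NEFM, NEFL and HOXA9) had sites in every library and PAX2, LHX1, SALL4 and MYCN had none. Of 9 markers of other cell types, none had sites in every library, 7 had none anywhere, and the fibroblast collagens COL1A1 and COL3A1 were listed in 3 libraries. A gene is listed only where a site was called in it, so a missing gene is not shown to be absent from the cells. The share of adenosines left unconverted, from the rates deposited per gene, had a median of 2.72% and 2.87% with ascorbic acid and of 2.51% and 3.88% in control, so the second control library was the highest. EGLN3 had 4.22% and 4.17% unconverted with ascorbic acid, against 4.34% and 5.81% in control, and the RAB4B-EGLN2 values were nearly the same as those of EGLN3. The part of incomplete conversion in the results was not tested, beyond levels corrected for these shares.

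The m6A level of these transcripts was lower with ascorbic acid. With A and G reads summed over a gene's tested sites, HIF1A, VHL, EGLN1, EGLN3 and HIF1AN fell, EPAS1 and ARNT did not pass the test, and none rose. The 5 of 7 that fell stand beside 56.7% of all tested genes that fell, and the 0 that rose beside 0.297%. Of all genes with at least 3 tested sites, a set without ARNT and its 2 sites, 68.2% fell. None of the members had a rise at an unadjusted p under 0.05 by edgeR, and none rose by limma or DESeq2. In each of the 7 genes the ascorbic acid libraries were both under the lower control library, as they were in 76.7% of all genes. The median log2 odds ratio of A (ascorbic acid over control) was −0.41 over the members and −0.39 over all tested genes. The members' median was thus near that of all genes. With 2 libraries in each group an exact permutation test of a single value cannot give a two-sided p below 0.333, so tests rest on models fitted over all sites or genes.

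**Figure D1:**
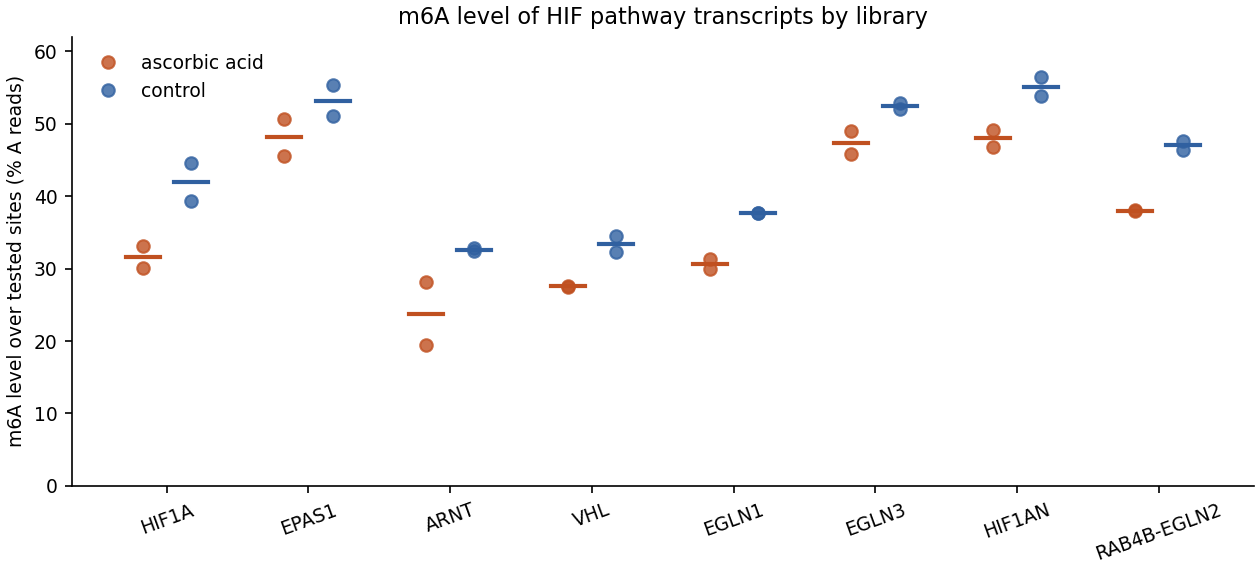
m6A level per gene (percent of A reads over its tested sites, y axis) for the 7 members with tested sites and RAB4B-EGLN2 (x axis). Points are single libraries, ascorbic acid on the left and control on the right of each gene, and bars are group means; both ascorbic acid points lie below both control points in every gene shown.

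The range between genes was wider than the difference between groups in any of them. With ascorbic acid the highest levels were those of EPAS1 (48.1% ± 3.68), HIF1AN (48.0% ± 1.60) and EGLN3 (47.4% ± 2.24), whose libraries overlapped. RAB4B-EGLN2 followed at 38.0% ± 0.115, then HIF1A (31.6% ± 2.14) and EGLN1 (30.6% ± 0.976), which overlapped, then VHL (27.6% ± 0.0896) and ARNT (23.8% ± 6.20), which also overlapped (SD, n = 2 each). In control the same 3 genes led, with HIF1AN at 55.1% ± 1.85, EPAS1 at 53.2% ± 3.03 and EGLN3 at 52.5% ± 0.563. There EPAS1 overlapped HIF1AN and EGLN3, which did not overlap each other. Then came RAB4B-EGLN2 at 47.0% ± 0.916, HIF1A at 41.9% ± 3.73, EGLN1 at 37.7% ± 0.00544, VHL at 33.4% ± 1.54 and ARNT at 32.6% ± 0.252. VHL and ARNT were the only neighbours among these last 5 that overlapped in control. The order describes listed sites alone, since a site under 10% is not in the lists.

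At single sites, 18 of the 60 tested member sites fell, 0 rose and 42 did not pass. Of all tested sites 25.7% fell and 0.219% rose. The sites that fell were 7 of 18 in VHL, 4 of 15 in EGLN1, 4 of 6 in HIF1AN, 2 of 4 in HIF1A and 1 of 11 in EGLN3, with none of 4 in EPAS1 and none of 2 in ARNT. At an unadjusted p under 0.05 by edgeR, 0 of the 60 member sites rose and 25 fell, beside 448 and 27268 of all 78509 tested sites. By that threshold 0 EPAS1 sites and 1 ARNT site fell. No member site rose by limma or DESeq2. Ascorbic acid libraries had the lower mean at 53 of the 60 sites and the higher at 7, beside 82.9% lower over all sites. Both were under the lower control library at 35 sites (58.3%, beside 55.4% of all sites) and over the higher one at 1 site (1.67%, beside 4.22%). The library medians over the 60 sites were 30.4% and 28.1% with ascorbic acid, against 33.7% and 31.7% in control, so they did not overlap. The median difference was −5.15 percentage points (−5.19 after correction for the unconverted share), and −4.89 points over all sites.

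The count of single sites depended on individual libraries and on the test. It was 7 without the second ascorbic acid library, 11 without the first, 7 without the second control library and 16 without the first. By DESeq2 it was 7 and by limma on log2 odds it was 4, with all sites called falling to 10007 and 10218 of 20313. By level, 13 of 26 member sites with a control level of at least 40% fell, and 5 of 34 below it. The same shares over all sites were 39.9% and 10.8%, and the depth of member sites ran from 23 to 1240 reads with a median of 138.

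**Figure D2:**
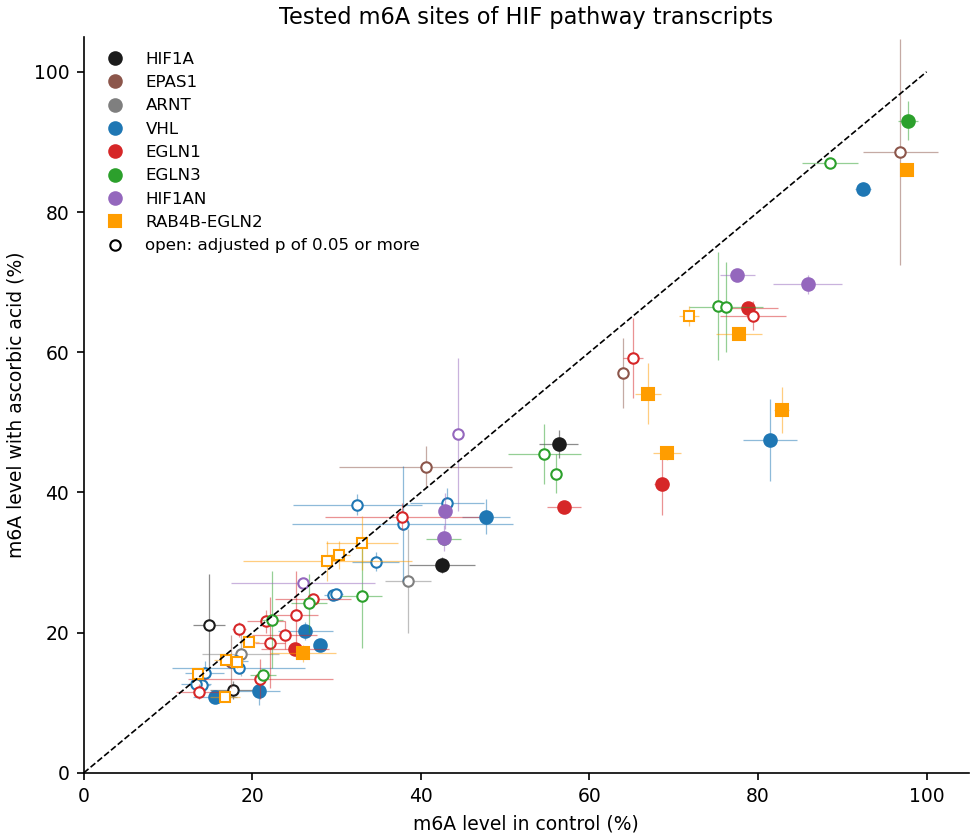
m6A level at each tested site with ascorbic acid (y axis, percent) against control (x axis, percent). Points are group means, bars are the SD (n = 2), filled points passed the edgeR test and open points did not, and the dashed line marks equal levels; all filled points lie below the line, the lowest relative to it being a VHL site at 47.5% with ascorbic acid against 81.4% in control.

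HIF1A encodes the alpha subunit of HIF-1. Its summed level was 33.1% and 30.1% with ascorbic acid, against 39.3% and 44.6% in control, over 4 of its 16 listed sites. The groups did not overlap, and the log2 odds ratio was −0.66 ± 0.11 (SE; edgeR adjusted p = 4.31e-05). Most reads came from chr14:61695701, which lies 188 nt after the annotated start of the gene (61695513-61748258, plus strand). That site had 30.4% and 28.8% with ascorbic acid, against 39.8% and 45.3% in control, on 626 to 961 reads (edgeR adjusted p = 1.78e-06). A second site, 61747116, lies 1142 nt before the annotated end and had 48.4% and 45.5% with ascorbic acid, against 54.7% and 58.0% in control (edgeR adjusted p = 0.00504). Between them, 61738295 had 12.7% and 10.9% with ascorbic acid, against 15.8% and 19.7% in control, with no overlap between groups and no pass (edgeR adjusted p = 0.0664). The difference of −10.3 points from summed reads became −5.51 points when each site counted alike. The remaining tested site, 61695518, differed by 6.20 points in the other direction on 37 to 82 reads, so it weighs little in the sum. By limma neither HIF1A site passed (adjusted p = 0.0854 and 0.179), and 61747116, which passed in 6 of 10 alternatives, also missed the threshold by DESeq2 (0.150) and without the second library of either group.

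EPAS1 encodes HIF-2 alpha, and its sites were the shallowest of the set. The summed level was 50.7% and 45.5% with ascorbic acid, against 55.3% and 51.0% in control, on 140 to 167 reads over 4 of 11 listed sites. The groups did not overlap, yet the log2 odds ratio of −0.30 ± 0.24 did not pass (edgeR adjusted p = 0.282). It was −0.18 without the first control library and −0.14 without the second ascorbic acid library. All 4 tested sites lay within 1922 nt of the annotated end of the gene (chr2:46297407-46386697, plus strand). The site of highest level, 46384775, was at 100% and 77.1% with ascorbic acid, against 93.8% and 100% in control, on 24 to 35 reads, so the groups overlapped. The deepest, 46385561, had 60.5% and 53.5% with ascorbic acid, against 63.8% and 64.2% in control, without overlap (edgeR adjusted p = 0.523). With this SE, neither no change nor a fall of HIF1A's size lay beyond 2 SE of the estimate.

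ARNT encodes the constant partner of the alpha subunits. Over 2 of its 9 listed sites its level was 28.2% and 19.4% with ascorbic acid, against 32.5% and 32.8% in control, on 114 to 165 reads. The ascorbic acid libraries lay below the control libraries and far from each other, and the log2 odds ratio was −0.66 ± 0.29 (edgeR adjusted p = 0.0545). It passed with the replicate number as a block (edgeR adjusted p = 0.0420) and with sites that have a neighbour 6 nt away left out (0.0471). No tested ARNT site has such a neighbour, so its own reads were unchanged in that setting. The log2 odds ratio was −1.01 without the first ascorbic acid library, where it passed, and −0.31 without the second, where it did not. It did not pass by limma (0.101) or DESeq2 (0.219). Its deeper site, chr1:150811807, lies 2094 nt before the annotated end (gene at 150809713-150876599, minus strand) and had 32.6% and 22.1% with ascorbic acid, against 36.6% and 40.4% in control (edgeR adjusted p = 0.0826).

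VHL encodes the substrate receptor of the ubiquitin ligase that recognises hydroxylated HIF alpha. It held the most sites of the set, 30 listed and 18 tested. Its summed level was 27.5% and 27.6% with ascorbic acid, against 32.3% and 34.5% in control, on 6523 to 7498 reads. Neither group overlapped the other and the log2 odds ratio was −0.40 ± 0.07 (edgeR adjusted p = 0.000106). Of the 18 sites 7 fell, 11 did not pass, and 1 had a higher mean with ascorbic acid. The gene spans chr3:10141778-10153667 on the plus strand.

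The largest fall in points among the members was at VHL 10142912, 1134 nt after the annotated start, at 43.3% and 51.6% with ascorbic acid, against 83.7% and 79.2% in control. It rests on 30 to 48 reads per library (edgeR adjusted p = 0.000389) and passed in all 9 alternative settings that could test it. Its 6 neighbours between 89 and 1071 nt from the start did not pass. The site of highest level, 10150039, had 84.0% and 82.7% with ascorbic acid, against 93.1% and 91.8% in control, on 820 to 952 reads (edgeR adjusted p = 2.31e-08), and missed the threshold by limma alone (0.0535). Low-level sites also fell. At 10146543 the values were 10.2% and 13.0% with ascorbic acid, against 19.0% and 22.6% in control (edgeR adjusted p = 3.26e-05; 0.0503 by limma). The deepest member site, 10150396 with 955 to 1240 reads, had 11.2% and 10.4% with ascorbic acid, against 13.7% and 17.4% in control (edgeR adjusted p = 0.00123), a call lost by limma and without the second library of either group. At none of these 4 sites did the groups overlap.

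The other 3 called VHL sites were less firm. At 10149854 the level was 19.3% and 21.1% with ascorbic acid, against 24.0% and 28.6% in control (edgeR adjusted p = 0.0364). The values at 10150502 were 38.4% and 34.7% with ascorbic acid, against 45.7% and 49.8% in control (edgeR adjusted p = 0.00887). Position 10150798 had 17.9% and 18.6% with ascorbic acid, against 28.3% and 27.9% in control (edgeR adjusted p = 0.0311). They passed in 5, 6 and 4 of 10 alternatives. Each lost its call by limma, by DESeq2 and without the second library of either group. Without the first ascorbic acid library 10149854 and 10150798 lost theirs too, and 10150798 also without the first control library. Next to 10149854, the site 10149859 had 25.3% and 25.8% with ascorbic acid, against 29.3% and 30.5% in control, and did not pass (edgeR adjusted p = 0.163).

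EGLN1 encodes PHD2, the main oxygen sensor among the HIF prolyl hydroxylases in most cells. Its summed level was 31.3% and 29.9% with ascorbic acid, against 37.7% and 37.7% in control, on 1760 to 2629 reads over 15 of 29 listed sites. The groups did not overlap and the log2 odds ratio was −0.46 ± 0.09 (edgeR adjusted p = 0.000156). The gene lies at chr1:231363756-231422287 on the minus strand, and its tested sites fell into 2 clusters. One holds 9 sites within 1228 nt of the annotated start, the other 6 sites within 2610 nt of the annotated end.

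All 4 EGLN1 sites that fell were in the cluster near the start. At 231421059 the level was 38.1% and 44.3% with ascorbic acid, against 69.2% and 68.0% in control, on 103 to 174 reads (edgeR adjusted p = 8.46e-07). This site passed in all 10 alternatives. At 231421140 it was 37.6% and 38.3% with ascorbic acid, against 55.6% and 58.4% in control (edgeR adjusted p = 0.00164; 0.0950 by DESeq2). Close to 231421140, the sites 231421152, 231421179 and 231421232 had levels between 11.4% and 27.0% in every library and did not pass. Nor did 231421740, at 66.7% and 63.8% with ascorbic acid, against 76.6% and 82.1% in control (edgeR adjusted p = 0.0615). At 231421407 the ascorbic acid libraries, at 19.7% and 21.2%, lay above control, at 19.0% and 17.8%, and the site did not pass. The first site of the cluster, 231422068, lies 219 nt after the start and had 66.1% and 66.7% with ascorbic acid, against 76.2% and 81.4% in control (edgeR adjusted p = 0.0145). At 231421257 the level was 17.4% and 18.0% with ascorbic acid, against 22.2% and 27.9% in control (edgeR adjusted p = 0.0454). These 2 calls held in 5 of 10 alternatives each. They were lost by limma, by DESeq2, without either ascorbic acid library and without the second control library.

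The split of EGLN1 at its midpoint was chosen after the site values were seen. Near the start the level was 31.1% and 31.0% with ascorbic acid, against 39.4% and 44.4% in control (log2 odds ratio −0.67 ± 0.11; edgeR adjusted p = 9.71e-05). Near the end it was 31.5% and 28.7% with ascorbic acid, against 35.5% and 30.8% in control, so the groups overlapped (−0.21 ± 0.12; adjusted p = 0.168). Over all genes, 50.1% of such parts fell. The difference between both parts of EGLN1 was −0.45 ± 0.17, which did not pass (edgeR adjusted p = 0.0688), beside 19.3% of 3268 genes whose parts differed. Without the first control library it was −0.77 and passed (edgeR adjusted p = 0.00178), and without the second it was −0.17 and did not (0.550). In VHL, EGLN3 and HIF1A the corresponding differences were −0.11, −0.18 and −0.27, and none passed (edgeR adjusted p = 0.628, 0.607 and 0.386).

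Values of part of the EGLN1 cluster near the end are uncertain, because a copy of the gene has sites at the same spacing. EGLN1P1, an EGLN1 pseudogene at chr15:84633500-84636045, has 4 listed sites with the same spacing as 4 EGLN1 sites, 32, 9 and 7 nt apart. EGLN1 231366241 had 63.2% and 55.2% with ascorbic acid, against 66.0% and 64.3% in control. Its counterpart EGLN1P1 84634821 had 61.0% and 56.6% with ascorbic acid, against 67.7% and 55.4% in control. Neither passed, and values at these 4 positions are uncertain between the gene and its copy. Summed over its 5 tested sites EGLN1P1 had 23.9% and 21.1% with ascorbic acid, against 23.5% and 23.9% in control, with overlap (edgeR adjusted p = 0.562).

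**Figure D3:**
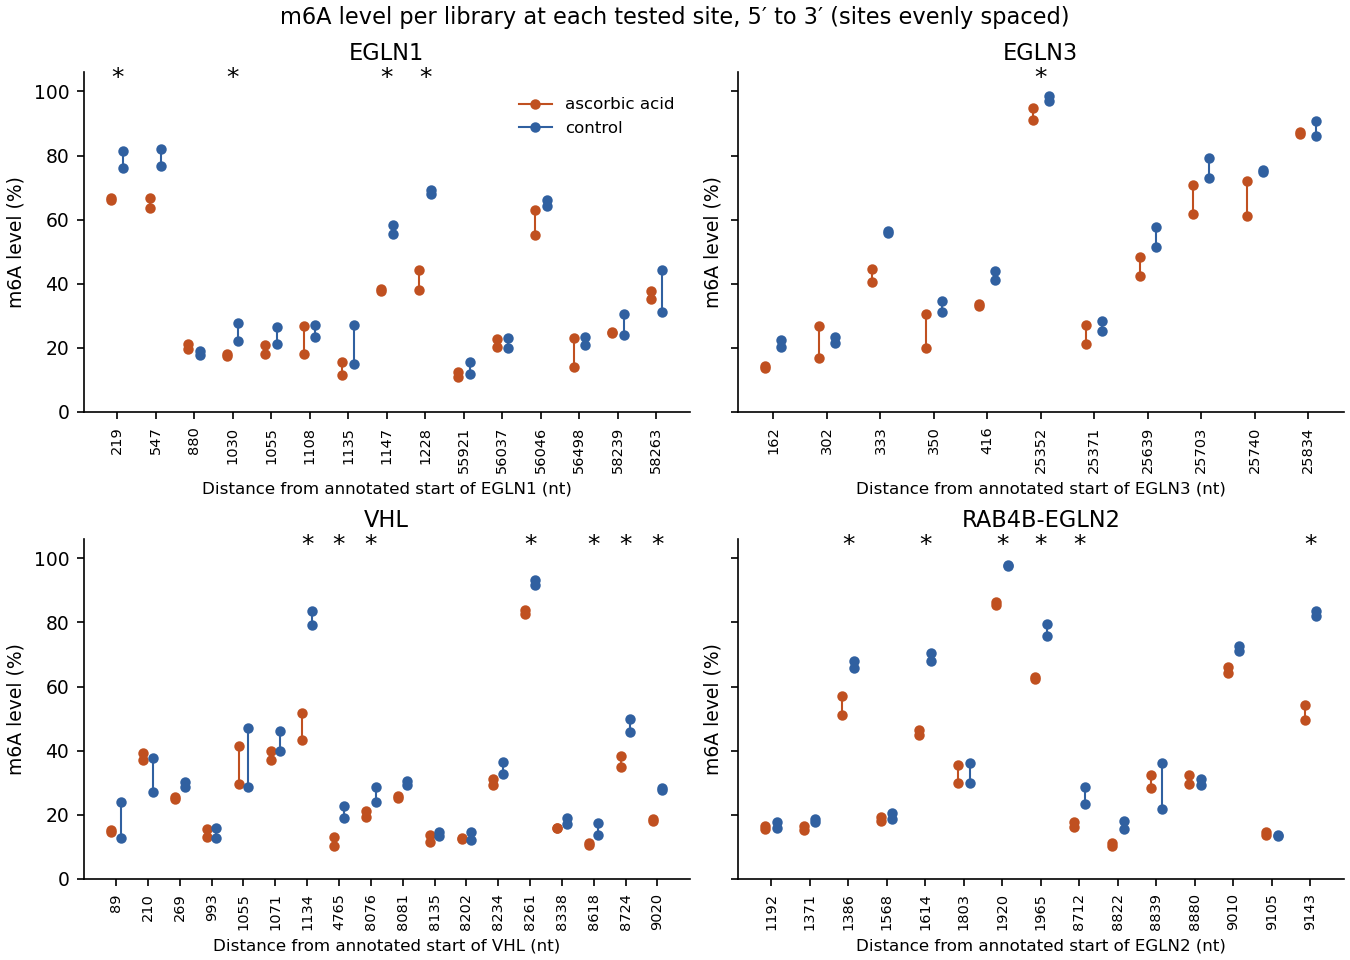
m6A level (percent, y axis) of every tested site of EGLN1, EGLN3, VHL and RAB4B-EGLN2 from 5′ to 3′, labelled by distance in nt from the annotated start (EGLN2's start for RAB4B-EGLN2) and evenly spaced, not to scale. Points are single libraries joined within a group, ascorbic acid left of control, and asterisks mark sites that passed the edgeR test; all 4 marked EGLN1 sites lie within 1228 nt of the start.

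EGLN2 encodes PHD1, a nuclear prolyl hydroxylase, and is represented by the sites named RAB4B-EGLN2. All 18 listed positions lie inside EGLN2 (chr19:40799191-40808434) and none inside RAB4B, so reads of EGLN2 itself and of the readthrough RNA cannot be told apart. Over 15 tested sites the level was 37.9% and 38.0% with ascorbic acid, against 46.4% and 47.7% in control, on 4051 to 5091 reads. The difference exceeded the spread of the replicates (log2 odds ratio −0.54 ± 0.07; edgeR adjusted p = 3.62e-06). Counted as EGLN2, the locus would bring the members to 6 of 8 genes and to 24 of 75 sites that fell.

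The sites of this locus that fell held high levels, with 1 exception. At 40808334, which lies 100 nt before the annotated end of EGLN2, the level was 49.5% and 54.1% with ascorbic acid, against 82.2% and 83.5% in control, on 342 to 403 reads (edgeR adjusted p = 1.77e-13). At 40801111 it was 86.4% and 85.4% with ascorbic acid, against 97.8% and 97.5% in control (edgeR adjusted p = 5.45e-11), so nearly every control read carried A. At 40800805 it was 44.9% and 46.3% with ascorbic acid, against 70.4% and 68.1% in control (edgeR adjusted p = 9.38e-08). These 3 sites passed in all 10 alternatives. Close to the first of them, 40808296 had 13.5% and 14.6% with ascorbic acid, against 13.6% and 13.4% in control, on 588 to 759 reads and did not pass (edgeR adjusted p = 0.824). Neighbours 38 nt apart thus differed by −31.0 and by 0.528 points. A tested site has a level of at least 10% in every library, so 40808296 could not fall far and still be tested.

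Of the other 3 called sites of the locus, 40801156 had 63.0% and 62.3% with ascorbic acid, against 75.8% and 79.6% in control (edgeR adjusted p = 2.04e-05; 0.0502 by limma). The site 40800577 had 57.1% and 51.0% with ascorbic acid, against 65.9% and 68.0% in control (edgeR adjusted p = 0.000309), and lost its call by limma (0.101) and without the second ascorbic acid library. The exception in level was 40807903, at 17.9% and 16.2% with ascorbic acid, against 23.3% and 28.8% in control (edgeR adjusted p = 0.000443), which lost its call by limma (0.0992) and without the second library of either group.

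EGLN3 encodes PHD3, the third HIF prolyl hydroxylase. Its summed level was 49.0% and 45.8% with ascorbic acid, against 52.9% and 52.1% in control, on 815 to 1183 reads over 11 of 15 listed sites. The groups did not overlap and the log2 odds ratio was −0.30 ± 0.11 (edgeR adjusted p = 0.0256). This call was lost by limma (adjusted p = 0.0867), by DESeq2 (0.147) and without the second ascorbic acid library (0.306). All 11 sites had a lower mean with ascorbic acid (beside 82.9% of all sites), and at 8 of them both ascorbic acid libraries were under the lower control library (beside 55.4%). A single one passed, chr14:33925722, 1495 nt before the annotated end (gene at 33924227-33951074, minus strand). It was methylated in nearly every read (142 to 234 reads). The level was 95.0% and 91.0% with ascorbic acid, against 98.6% and 96.9% in control (edgeR adjusted p = 0.0158). Its call held in 5 of 10 alternatives. The site lost it by limma, by DESeq2, without either control library and without the second ascorbic acid library. Near the start, 33950741 had 44.6% and 40.7% with ascorbic acid, against 55.7% and 56.3% in control, and did not pass (edgeR adjusted p = 0.0760).

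HIF1AN acts on HIF alpha beside the prolyl hydroxylases. Its summed level was 46.8% and 49.1% with ascorbic acid, against 53.8% and 56.4% in control, on 1760 to 2187 reads over 6 of 19 listed sites. Without overlap between groups, the log2 odds ratio was −0.41 ± 0.09 (edgeR adjusted p = 0.000667). The 6 tested sites lay between 12304 and 12889 nt after the annotated start of the gene (chr10:100535943-100559998, plus strand). The 4 nearest the start fell and the other 2 did not pass.

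At HIF1AN 100548247 the level was 70.6% and 68.7% with ascorbic acid, against 83.0% and 88.8% in control, on 288 to 387 reads (edgeR adjusted p = 4.10e-07), a call that held in all 10 alternatives. Only 5 nt further, 100548252 had 70.7% and 71.4% with ascorbic acid, against 76.1% and 79.0% in control (edgeR adjusted p = 0.0389). The deepest site, 100548326 with 746 to 970 reads, had 35.5% and 39.1% with ascorbic acid, against 43.2% and 42.6% in control (edgeR adjusted p = 0.0399). At 100548600 the values were 32.2% and 34.8% with ascorbic acid, against 42.1% and 43.3% in control (edgeR adjusted p = 0.0115). The last 3 calls were lost in 5 or 6 of 10 alternatives. Among these were limma, DESeq2 and each fit without the second control library or without an ascorbic acid library. The last tested site, 100548832, had 56.0% and 40.5% with ascorbic acid, against 44.3% and 44.4% in control, so the ascorbic acid libraries lay on both sides of control.

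Gene coverage, a deposited value per gene and library, passed the test in no member. Of the 7 members with a value, 0 passed the limma test in either direction, also by every alternative run. Over all 11848 genes 0.253% rose and 0.0422% fell, so few genes passed anywhere. At an unadjusted p under 0.05 the limma count was 0 of 7 as well. The unit of this value is not defined in the sources used here, so genes are not ranked by it. In bulk samples fewer cells with a transcript and less of it per cell cannot be told apart.

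HIF1A had scaled coverages of 127 and 141 with ascorbic acid, against 124 and 111 in control (log2 fold change 0.19 ± 0.08 SE; limma adjusted p = 0.358). EGLN3 had 82.9 and 74.7 with ascorbic acid, against 66.5 and 74.5 in control (0.16 ± 0.08; limma adjusted p = 0.437). In both the ascorbic acid libraries lay above the control libraries, as in 23.2% of all genes. HIF1AN had 124 and 118 with ascorbic acid, against 128 and 140 in control (−0.15 ± 0.07; limma adjusted p = 0.382), below control without overlap, as in 23.6% of genes. Leaving out 1 library gave 0.11 to 0.26 for HIF1A (lowest without the second ascorbic acid or second control library), 0.079 to 0.25 for EGLN3 (lowest without the first control or first ascorbic acid library) and −0.22 to −0.079 for HIF1AN (−0.079 without the second control library). VHL had 337 and 336 with ascorbic acid, against 323 and 349 in control (0.00 ± 0.06), and EGLN1 had 135 and 147 with ascorbic acid, against 135 and 137 in control (0.05 ± 0.06). EPAS1 had 27.5 and 25.3 with ascorbic acid, against 26.6 and 27.3 in control (−0.03 ± 0.07), and ARNT had 119 and 116 with ascorbic acid, against 129 and 117 in control (−0.06 ± 0.07). The groups overlapped in these 4 genes. RAB4B-EGLN2 had 248 and 269 with ascorbic acid, against 251 and 259 in control (0.02 ± 0.06), with overlap.

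**Figure D4:**
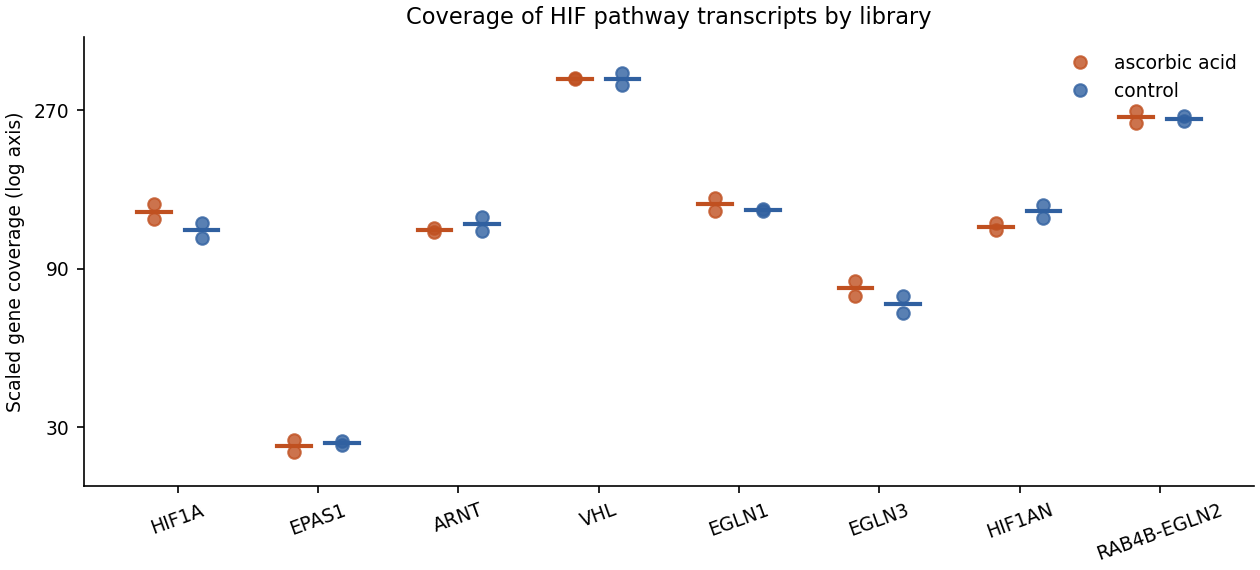
Scaled gene coverage per library (y axis, log axis, arbitrary unit of the deposited value) for the members with a value and RAB4B-EGLN2 (x axis). Points are single libraries, ascorbic acid left of control, and bars are group means; the largest difference in means is that of HIF1A, 134 with ascorbic acid against 118 in control.

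Of the 129 listed member sites, 69 were missing from at least 1 library and could not be tested. The libraries listed 83 and 88 member sites with ascorbic acid and 80 and 96 in control. All 60 that were listed in all 4 libraries had at least 20 reads in each; they make up 46.5% of the member sites, beside 38.4% for the series. Another 44 sites (34.1%, beside 35.1%) were listed in a single library. The median level of the incompletely listed sites, where listed, was 14.3%, close to the 10% limit of the lists.

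No member site was listed in both ascorbic acid libraries alone, beside 2.75% of the series. In both control libraries alone there were 4 (3.10%, beside 3.04%). VHL 10146570 was listed there at 10.3% and 12.5% on 686 and 641 reads, and VHL 10150236 at 10.0% and 11.5% on 160 and 191 reads. The first of these lies 27 nt from 10146543, which fell. EPAS1 46384561 was listed at 29.4% and 25.0% on 17 and 20 reads. EGLN3 33925572 was listed at 80.0% and 82.4%, on 15 and 17 reads, at and just over the read limit. Its 95% Wilson intervals run from 54.8% to 93.0% and from 59.0% to 93.8%. Whether the ascorbic acid libraries had too few reads or too low a level there cannot be read from the lists.

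In 3 lists of genes around the pathway, no gene's m6A level rose by edgeR, limma or DESeq2 with all 4 libraries, or at an unadjusted p under 0.05 by edgeR. Of 30 partners and parts of the degradation machinery 25 were tested, and 17 fell and 8 did not pass, beside 56.7% of all genes that fell (median log2 odds ratio −0.43, beside −0.39). OS9, which binds HIF1A and its hydroxylases, was at 29.7% ± 0.108 with ascorbic acid and 45.5% ± 1.70 in control (edgeR adjusted p = 7.90e-10). USP20, a deubiquitinase that acts on HIF1A, was at 25.1% ± 1.07 with ascorbic acid and 41.9% ± 1.10 in control (edgeR adjusted p = 3.22e-09). PIAS4, a SUMO ligase, was at 32.0% ± 0.0808 with ascorbic acid and 50.3% ± 3.38 in control (edgeR adjusted p = 3.53e-09; SD, n = 2 in each group). RACK1, which promotes oxygen-independent turnover of HIF1A, had 1 tested site at 10.5% ± 0.630 with ascorbic acid and 16.4% ± 0.275 in control (edgeR adjusted p = 2.22e-08). For coverage 0 of 27 genes of this list passed by limma. At an unadjusted p under 0.05 by limma 3 were higher and 1 lower with ascorbic acid. The share of all genes at that unadjusted threshold was not computed, so such counts are not read as results about a list.

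Of 28 transcripts known as HIF targets 24 were tested, and 11 fell and 13 did not pass, beside 56.7% of all genes that fell (median −0.22, beside −0.39); 1 rose without the second control library. The histone demethylase KDM3A was at 40.1% ± 1.27 with ascorbic acid and 56.8% ± 0.0153 in control (edgeR adjusted p = 9.72e-07), and VEGFA, the angiogenic growth factor, at 55.6% ± 0.934 with ascorbic acid and 66.7% ± 2.05 in control (edgeR adjusted p = 2.17e-06). The transferrin receptor TFRC was at 43.0% ± 0.656 with ascorbic acid and 55.1% ± 1.47 in control (edgeR adjusted p = 3.65e-06). NDRG1, a stress-responsive gene, was at 56.6% ± 5.32 with ascorbic acid and 70.2% ± 1.89 in control (edgeR adjusted p = 6.33e-05). It was also the 1 gene of 24 in this list whose coverage rose, beside 0.253% of all genes. Its scaled coverage was 150.3 and 156.3 with ascorbic acid, against 107.2 and 108.5 in control (log2 fold change 0.51 ± 0.06, limma adjusted p = 0.0329). This call was lost without either ascorbic acid library, where the log2 fold change was 0.54 without the first and 0.48 without the second. At an unadjusted p under 0.05 by limma, coverage of 2 genes of the list was higher and of 2 lower with ascorbic acid. The median log2 fold change in coverage over the list was −0.05.

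Other prolyl and lysyl hydroxylases that use ascorbate act mostly on collagen. Of 12 such genes and their partners 9 were tested, and 8 fell and 1 did not pass, beside 56.7% of all genes that fell (median −0.61, beside −0.39). P3H1, a prolyl 3-hydroxylase, was at 34.7% ± 1.01 with ascorbic acid and 49.7% ± 2.07 in control (edgeR adjusted p = 7.24e-08). P4HB, the shared subunit of the prolyl 4-hydroxylases, was at 36.0% ± 0.429 with ascorbic acid and 46.2% ± 1.14 in control (edgeR adjusted p = 7.41e-08). The lysyl hydroxylase PLOD1 was at 38.7% ± 0.651 with ascorbic acid and 50.0% ± 0.289 in control (edgeR adjusted p = 8.59e-08), and PLOD3 at 12.4% ± 0.454 with ascorbic acid and 25.9% ± 0.366 in control on a single site (edgeR adjusted p = 1.34e-07; SD, n = 2 in each group). For coverage 0 of the 9 passed by limma, and 2 had an unadjusted p under 0.05, both higher with ascorbic acid. Here too the share of all genes at that threshold was not computed. The lists overlap, since P4HTM is also counted among the HIF partners, and P4HA1 and P4HA2 among the HIF targets.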

How the data were processed

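Each library has its own table of called sites and their genes. The A plus G and A read counts are whole numbers deposited by the authors without scaling. The m6A level, A reads divided by A plus G reads, is a deposited fraction that matched its recomputation within 6e-06. The conversion rate is another deposited fraction, 1 value per gene and library. Gene coverage is a signal as deposited, with no unit given. The p-values of each site are the authors' test against background, per the file headers. Trimmomatic 0.39, STAR and GRCh38 appear in the submitters' processing notes, which name no site caller.

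Sites with 20 or more reads in every library's list were tested with edgeR 4.0.16 (quasi-likelihood, A and G reads, a term per library), and again on reads summed per gene; a read over several sites counts at each. Coverage was scaled per library (median of its ratios to the geometric mean of each gene) and tested with limma 3.58.1 on log2 values. Tests are two-sided, with Benjamini-Hochberg adjustment over the whole table and a threshold of 0.05. Scripts were tested on simulated data. R 4.3.3, DESeq2 1.42.0 (alternative), Python 3.11.15, scipy 1.17.1, pandas 2.3.3, numpy 2.4.6 and matplotlib 3.10.9 were used.

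Named sites are those past the threshold, plus the deepest site and the site of highest level of each member; up to 4 genes of smallest p are named per list. Sites beyond this rule (neighbours of called sites, incompletely listed sites, those in promoter windows and EGLN1P1) were chosen after their values were seen. The members and lists were chosen with earlier results of these data known. One gene of the cell line's marker list is not reported here. Gene spans come from RefSeq (GRCh38.p14), where 14462 of 15209 gene names matched on the same chromosome. No genome or transcript annotation was used here, so transcript regions are not given. Replicate numbers did not pair the samples (r = −0.163 over genes for coverage). Whether duplicate reads were removed is not given, so intervals cover counting error only.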

Additional observations from a re-analysis of the deposited data

How the results depend on the processing

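Of the 18 calls at member sites, 4 remained by limma on log2 odds and 7 by DESeq2, where 4 and 7 member sites fell. Leaving out 1 library at a time gave 7 to 16, and the cause was not tested. Over all sites the number called was 20313, with 10218 by limma, 10007 by DESeq2 and 12528 to 17006 without 1 library. With the replicate number as a block the calls were 18 member sites, 6 member genes and 21060 sites in all; for coverage the block gave 92 genes and the crossed pairing, chosen after seeing the data, 107, against 35 without a block. Coverage calls over all genes numbered 71 with scaling by totals and 5 to 358 without 1 library (358 without the first control library, 5 without the first ascorbic acid library); no member passed in any of these.

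Per gene, the m6A log2 odds ratio of members and RAB4B-EGLN2 kept its direction in all 79 alternatives, 73 of them on the same side of the threshold, with 3 lost calls in EGLN3 and 3 gained in ARNT. At the 27 named member and RAB4B-EGLN2 sites 203 of 267 alternatives kept direction and call, 63 lost the call and 1 reversed. That was EPAS1 46384775, with log2 odds ratios of −4.85 to 3.22 without 1 library. Without 1 library the log2 fold changes of coverage ran from −0.123 to 0.00568 in ARNT, −0.0107 to 0.114 in EGLN1, −0.0930 to 0.0322 in EPAS1, −0.0520 to 0.0645 in VHL and −0.0394 to 0.0799 in RAB4B-EGLN2, and so changed sign. The difference between both parts of EGLN3 ran from −0.343 to 0.00319, 0.00319 being the value without the second ascorbic acid library. EPAS1 and ARNT had at most 167 reads summed over their tested sites in a library, and sites under a level of 10% could not be followed.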
